A study of Mus musculus with 3 samples.

Results

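Ago2 HITS‐clip peaks from N2A cells, a mouse neuroblastoma line, were examined in 10 genes that make microRNAs (miRNAs) or carry out their repression: Drosha, Dgcr8, Xpo5, Dicer1, Ago1, Ago2, Ago3, Tnrc6a, Tnrc6b and Tnrc6c. The genes were chosen by name, as members of the pathway, with earlier results of these data known, and they were 10 of the 21021 genes for which the annotation gives a protein and a 3′UTR. In HITS‐clip, ultraviolet light crosslinks proteins to RNA in living cells. A protein, here Argonaute 2 (Ago2), is pulled down with an antibody, and the bound RNA fragments are sequenced. All 3 libraries, replicates 1 to 3, came from N2A cultures under basal conditions, crosslinked at 400 and later at 200 mJ per square cm, and the Ago2 antibody was the same for all. They formed 1 group and no control pulldown was analysed here, so the comparisons are between libraries, between parts of a gene and between strands. Nothing in the labels says that the cultures were independent, and the p-values therefore measure only the spread between these 3 libraries, which may be technical.

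In the nucleus Drosha and its partner Dgcr8 form the Microprocessor, which cuts the hairpin out of a primary miRNA transcript. Exportin-5, encoded by Xpo5, carries the hairpin to the cytoplasm, where Dicer1 trims it to a duplex. One strand is loaded into an Argonaute protein, which pairs the miRNA seed, its bases 2 to 8, with sites that lie mostly in 3′UTRs. The GW182 proteins, encoded by Tnrc6a, Tnrc6b and Tnrc6c, bind Argonaute and recruit the deadenylases that shorten the target's poly(A) tail. Transcripts of this machinery can themselves be bound by Argonaute.

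The deposited table gives intervals and no read counts. It held 711377, 498071 and 829936 peaks in replicates 1, 2 and 3, and read depth was unknown. Of all peaks, 2.45%, 11.1% and 6.65% had their midpoint in a 3′UTR on the gene's strand, so replicate 1 held the lowest share of 3′UTR peaks. Of 10 markers of neuronal or neuroblastoma cells, 5 had a 3′UTR peak in every library, among them Hand2 and Gata3, transcription factors of the sympathetic lineage, while 3 had none, among them the neurofilament genes Nefl and Nefm. Of 16 markers of other cell types, 3 had a peak in every library, among them Ptprc and Mbp, and 9 had none. The summed 3′UTR peaks of those 16 genes were 8, 7 and 16 in replicates 1, 2 and 3, against 45, 65 and 85 for the neuronal list, and their part in the results below was not tested. Transcript levels were not measured here, and more binding and more RNA cannot be told apart.

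The machinery genes held 96, 298 and 199 same-strand peaks in their 3′UTRs in replicates 1, 2 and 3, and 13, 4 and 1 on the opposite strand. Coding sequence held 48, 165 and 95 same-strand peaks, and introns held 302, 216 and 692. Replicate 2 thus had the most peaks in 3′UTRs and coding sequence although it was the smallest library, and replicate 3 had the most in introns. The members' 3′UTR peaks were 0.551%, 0.538% and 0.361% of all 3′UTR peaks of the library.

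Peaks in the 3′UTR recurred in most of these genes. In 7 of the 10, the 3′UTR held a same-strand peak in every library, and the share among all genes was 22.4%. The 7 genes were Ago2, Ago3, Dicer1, Xpo5, Tnrc6a, Tnrc6b and Tnrc6c. Ago1 and Drosha lacked a peak in replicate 1, and Dgcr8 lacked one in replicate 3. The same 7 genes held a common region, a stretch of at least 8 nt covered on the same strand in all libraries, in the 3′UTR, against 14.3% of all genes. With the strand reversed, none of the 10 genes had a peak in every library or a common region, against 2.15% and 0.737% of all genes.

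A longer 3′UTR has more room for a peak, so the genes were also set beside genes of like length. The median 3′UTR was 3220 nt in the machinery genes and 961 nt in all genes. Among genes with a 3′UTR of at least 2386 nt, 5 of the 6 machinery genes had a peak in every library and 5 had a common region, against 49.9% and 30.3% of all genes in that class. Among those with 1306 to 2385 nt, 2 of 3 had a peak in every library and 2 had a common region, against 31.8% and 20.2%. Drosha, alone in the class of at most 282 nt, had neither, against 1.88% and 2.04%. The median share of 3′UTR length under peaks, averaged over libraries, was 25.02% in the machinery genes and 3.32% in all genes. Among genes of at least 2386 nt these medians were 29.2% and 7.78%, and among those of 1306 to 2385 nt they were 19.7% and 5.72%. By library the machinery genes had medians of 17.6%, 38.1% and 27.8%. Transcript level was not matched in these shares.

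**Figure D1:**
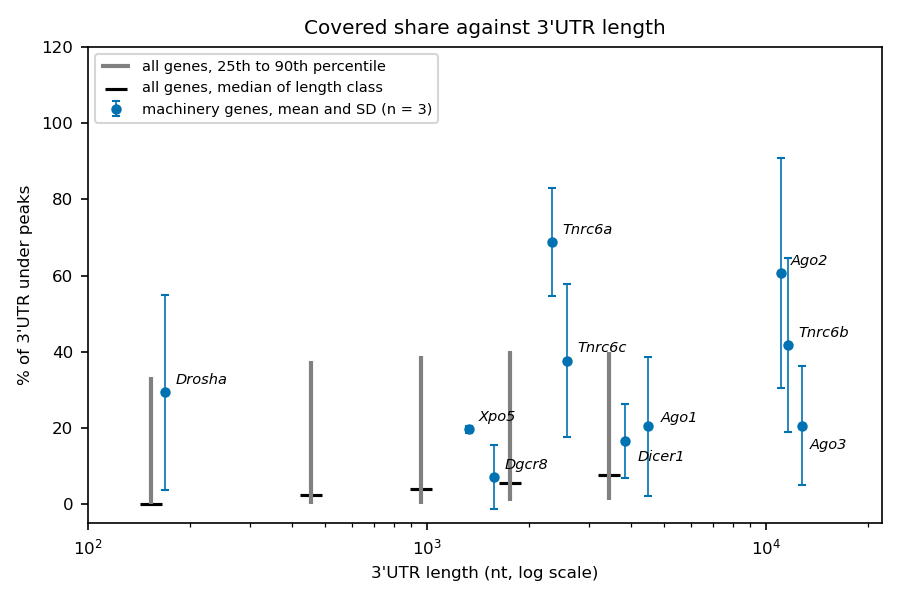
The plot sets the percentage of each 3′UTR under same-strand peaks against 3′UTR length on a log scale. Blue points are the 10 machinery genes with the mean and SD of 3 libraries, and grey bars run from the 25th to the 90th percentile of all genes in each of 5 length classes with the median as a black dash. Tnrc6a (68.9%), Ago2 (60.7%) and Tnrc6b (41.8%) lie above the 90th percentile of their class, and Dgcr8 (7.18%) lies close to the median of its class.

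Drosha, the nuclease of the Microprocessor, has a 3′UTR of only 169 nt, and it held 0, 1 and 1 peaks in replicates 1, 2 and 3. Its coding sequence held 4, 4 and 8 peaks and its introns 19, 20 and 81. No stretch of Drosha was covered in all libraries in any of the 3 parts of the gene. Replicate 3 gave 81 of the 120 intronic peaks.

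Dgcr8, the RNA-binding partner of Drosha, had 3, 1 and 0 peaks in its 3′UTR of 1574 nt and 1, 2 and 1 in its coding sequence. Its mean covered share of 3′UTR was the lowest of the 10 genes, 7.18% ± 8.30 (SD, n = 3). The only common region of Dgcr8 lay in exon 2, in coding sequence, at chr16:18284221-18284338 on the minus strand (GRCm38, 118 nt). It covered the whole of Mir1306, a miRNA hairpin annotated at chr16:18284239-18284317 within that exon. Both mature arms were covered to their full length in every library. They are shown with the seed in capitals, since the region in the Dgcr8 message coincides with their hairpin:
miR-1306-3p: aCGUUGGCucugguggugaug
miR-1306-5p: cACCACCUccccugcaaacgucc
The peaks over the hairpin were 118 nt wide in replicate 1 and 129 nt in replicate 3, while replicate 2 held a pair of peaks there, the first of 87 nt. A second annotated hairpin in exon 2, in the 5′UTR and listed as Gm24572, had a peak in replicate 1 and none in the other libraries. Whether the fragments came from the message, from the hairpin or from the mature miRNA cannot be told apart from intervals.

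Xpo5, the export receptor, had the smallest SD between libraries of the 10 genes in the covered share of 3′UTR. Its 3′UTR of 1327 nt held 3, 3 and 2 peaks, and 18.8%, 20.7% and 19.4% of its length lay under peaks, a mean of 19.7% ± 0.962 (SD, n = 3). One common region of 62 nt lay at chr17:46243529-46243590, centred 1288 nt from the stop codon and so near the 3′ end of the message. The coding sequence held 4, 6 and 7 peaks without a common region. In intron 20 a common region at chr17:46231551-46231634 overlapped the annotated hairpin Mir693 (chr17:46231531-46231619). The midpoints of the peaks that overlapped the region most in each library lay within 3 nt of each other. Replicate 2 held 2 peaks over the hairpin. Both arms of Mir693 were covered in full in each library, and the 3p arm also after 30 nt were removed from each side of the peaks:
miR-693-3p: gCAGCUUUcagauguggcuguaa
Of the 5 small RNA hairpins annotated on the strand of a machinery gene, Mir1306 and Mir693 were those with a peak in every library. In replicate 3 the only peak over Mir1306 had a score of 58.27 and the only peak over Mir693 had 57.15. Both are below the top score of 60, so with peaks at 60 alone neither hairpin had a peak in every library. Mir5113, in the 3′UTR of Tnrc6b, had a peak in replicate 3 alone, and Gm47288 in Drosha had none.

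Dicer1, which cuts the exported hairpin, had more peaks in coding sequence than in the 3′UTR in each library. The 3′UTR of 3851 nt held 4, 13 and 6 peaks, and the coding sequence of 5721 nt held 11, 32 and 20. The covered share was 8.44%, 27.4% and 14.4% of the 3′UTR and 19.7%, 64.0% and 36.3% of the coding sequence, so coding sequence was the more covered part in each library. The mean log2 ratio of 3′UTR over coding sequence density was -0.86 ± 0.47 (SE, n = 3), with -0.78, -0.70 and -1.09 in the 3 libraries, and it did not pass limma's test (adjusted p = 0.296). The 3′UTR held 1 common region, of 47 nt, centred 100 nt from the stop codon at chr12:104691470-104691516. Coding sequence held 4, of which those in exon 16 (chr12:104706619-104706720), exon 21 (chr12:104702724-104702862) and exon 23 (chr12:104696347-104696368) had the closest midpoints. The region in exon 21 contained an 8mer match of let-7a-5p, which is a match to the seed followed by an A. Its 30-base window, chr12:104702802-104702831 on the minus strand, is shown with the match in capitals below the miRNA, whose seed is in capitals, because it is a complete match in the message of an enzyme that let-7 maturation needs:
let-7a-5p: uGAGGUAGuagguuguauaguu
Dicer1 exon 21: ggaaatacctgtacaaccaaCTACCTCAta
A match of miR-181a-5p without the following A lay in the same region. The search of coding sequence was added after the peaks had been seen.

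Among the 3 Argonaute genes, Ago2 had the most 3′UTR peaks in each library. Ago1 had 0, 18 and 12 peaks in a 3′UTR of 4491 nt, Ago3 had 6, 45 and 33 in 12742 nt, and Ago2 had 32, 101 and 83 in 11064 nt. Ago2, the Argonaute with slicer activity and the protein pulled down here, was the most densely covered of the 3 in each library. Its covered share of 3′UTR was 25.9%, 80.8% and 75.3%, against 0%, 35.4% and 26.0% in Ago1 and 3.94%, 35.0% and 23.0% in Ago3. Replicate 1 was the lowest library for each of them. The mean density was 6.51 ± 3.23 peaks per kb (SD, n = 3) for Ago2, 2.23 ± 2.04 for Ago1 and 2.20 ± 1.57 for Ago3, so Ago1 and Ago3 did not differ beyond their spread.

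The Ago2 3′UTR held 22 common regions, the third highest number of all 21021 genes, in a 3′UTR that is among the long ones. By covered share it ranked 469th of all genes and 77th of the 4200 in its length class, and 17.95% of its length was common to all libraries. At least 10 common regions in the 3′UTR, which Ago2 and Tnrc6b had, were found in 0.381% of all genes. Leaving out replicate 1, 2 or 3 gave 41, 22 and 22 regions in Ago2 and 25, 14 and 26 in Tnrc6b. The regions of Ago2 were centred from 1930 to 10944 nt after the stop codon, as the map of peaks along the 3′UTR shows. The 3 regions with the closest midpoints, within 6, 11 and 12 nt, lay at chr15:73095914-73096014, chr15:73104798-73104891 and chr15:73103032-73103163, on the minus strand. Ago3 held 2 common regions, of 29 and 28 nt, at chr4:126339971-126339999 and chr4:126345196-126345223, and Ago1 held none in its 3′UTR. Without replicate 1, Ago3 held 17 and Ago1 held 10, against 41 in Ago2. The single common region of Ago1 lay in exon 6 and rested in replicate 1 on a peak of 7749 nt, which spanned introns as well. In coding sequence Ago2 had 2, 8 and 7 peaks and Ago3 had 0, 0 and 3, and neither held a common region there.

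Inside the common regions of the Ago2 3′UTR lay 12 of its 49 matches to the listed miRNAs. The list held 36 miRNAs, of which 35 had a mature sequence in RefSeq, and a match meant seed positions 2 to 8 in the 3′UTR. The 3 with a following A belonged to miR-103-3p, let-7a-5p and miR-181a-5p. They are shown with the match in capitals and the miRNA before it where it was not shown yet, for the windows chr15:73096865-73096894, chr15:73097980-73098009 and chr15:73102313-73102342 on the minus strand, since these are positions in the Ago2 message where a complete 8mer was covered in all libraries:
miR-103-3p: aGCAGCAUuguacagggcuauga
Ago2, 10034 nt from the stop codon: agaataaatccccctttagtATGCTGCAta
Ago2, 8919 nt from the stop codon (let-7a-5p): ctttcttttacaatgtggatCTACCTCAgt
miR-181a-5p: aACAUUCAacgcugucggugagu
Ago2, 4586 nt from the stop codon: ctctttgagacctgaaggctTGAATGTAac
The other 9 matches in these regions lacked the following A and belonged to miR-222-3p, miR-15a-5p, miR-103-3p, miR-183-5p, miR-17-5p, miR-130a-3p and let-7a-5p. None of the 55 matches in Ago3 or the 22 in Ago1 lay in a common region, although 22 of the Ago3 matches were under a peak in replicate 2.

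**Figure D2:**
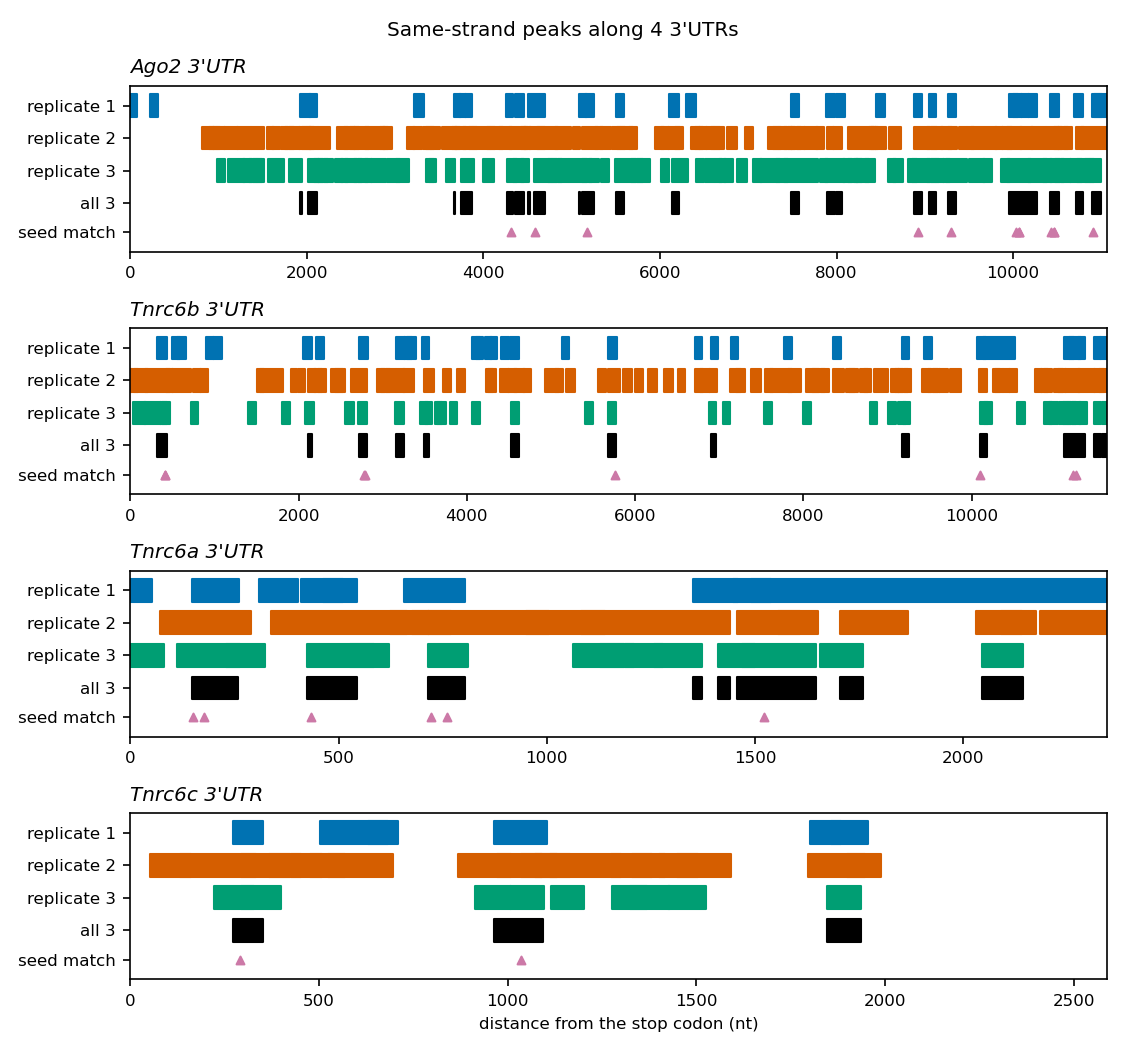
The map shows same-strand peaks along the 3′UTRs of Ago2, Tnrc6b, Tnrc6a and Tnrc6c by distance from the stop codon in nt. Coloured bars are the peaks of replicates 1 to 3, black bars are the 22, 13, 8 and 3 stretches covered in all 3 libraries, and triangles are the seed matches of listed miRNAs inside them.

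The GW182 genes had like mean peak densities in their 3′UTRs, while the covered share was highest in Tnrc6a in each library. Tnrc6a had 8, 13 and 14 peaks in a 3′UTR of 2345 nt, Tnrc6b had 34, 85 and 39 in 11609 nt, and Tnrc6c had 6, 18 and 9 in 2588 nt. Their mean 3′UTR densities were 4.98 ± 1.37, 4.54 ± 2.42 and 4.25 ± 2.41 peaks per kb (SD, n = 3), differences smaller than their spread. Tnrc6a had the highest mean covered share of 3′UTR among the 10 genes, with 65.2%, 84.6% and 56.8%. The shares were 27.6%, 68.2% and 29.6% in Tnrc6b and 22.4%, 60.3% and 30.4% in Tnrc6c. In replicate 1 a single peak of 2694 nt covered the distal part of the Tnrc6a 3′UTR, and it overlapped 3 of the 8 common regions there. It was the only replicate 1 peak over 2 of them, while the third, chr7:123194409-123194597, also held a replicate 1 peak of 91 nt.

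Tnrc6a held 8 common regions in the 3′UTR, Tnrc6b 13 and Tnrc6c 3. The 3 closest in Tnrc6a were chr7:123193101-123193211, chr7:123193376-123193495 and chr7:123193666-123193755, centred 204, 484 and 759 nt from the stop codon. In Tnrc6b the closest were chr15:80940937-80941018 and chr15:80932641-80932732, followed by chr15:80935155-80935251 and chr15:80936380-80936441, which tied. In Tnrc6c they were chr11:117761123-117761202, chr11:117761816-117761946 and chr11:117762697-117762788. All these genes lie on the plus strand.

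Tnrc6a held 6 of the seed matches in its common regions, and 4 of them, all of its matches to this miRNA, belonged to miR-30a-5p. Among all genes, 2897 had a match of miR-30a-5p in the 3′UTR and 13 had 4 or more, a threshold chosen after the Tnrc6a count was seen. Of all 3505 matches of this miRNA, 2.91% lay in common regions, and common regions made up 30.4% of the Tnrc6a 3′UTR. The miRNA is shown with its 4 windows in order from the stop codon, the match in capitals and the following A included where there is one, and the last of them lay under the 2694 nt peak and the 91 nt peak of replicate 1:
miR-30a-5p: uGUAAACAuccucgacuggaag
Tnrc6a, chr7:123193364-123193393: gggcagctgttccagtgtagaTGTTTACtc
Tnrc6a, chr7:123193653-123193682: gttcccacggtgaaccttctTGTTTACAga
Tnrc6a, chr7:123193691-123193720: tttgttttttgagaaaaaaaaTGTTTACtc
Tnrc6a, chr7:123194452-123194481: agaggtcagtggcttttaacTGTTTACAat
The fifth miR-30a-5p match in a common region lay in Tnrc6c, without the following A:
Tnrc6c, chr11:117761866-117761895: tggtgacaattcatgtgtaaaTGTTTACtc

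The other 8mers of the GW182 family in common regions of the 3′UTR were matches of miR-26a-5p and miR-23a-3p near the start of the Tnrc6a 3′UTR and of miR-204-5p and miR-101a-3p in Tnrc6b. They are shown in the same way, with the miRNA before its window, as the remaining 8mers under recurrent peaks of the 3′UTRs:
miR-26a-5p: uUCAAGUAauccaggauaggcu
Tnrc6a, chr7:123193081-123193110: ccaaaacatatcagtttgaaTACTTGAAtc
miR-23a-3p: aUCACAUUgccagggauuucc
Tnrc6a, chr7:123193108-123193137: atcatgcaggccaatattatAATGTGAAag
miR-204-5p: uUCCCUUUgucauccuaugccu
Tnrc6b, chr15:80932245-80932274: tgttcttccatcataagcttAAAGGGAAaa
miR-101a-3p: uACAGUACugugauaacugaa
Tnrc6b, chr15:80940700-80940729: gtgtatttttgccatagcagGTACTGTAtt
Tnrc6b held 8 matches in its common regions and Tnrc6c held 2.

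Over all 10 genes, 28 of 221 seed matches lay inside common regions of the 3′UTR, or 12.7%, and 9 of the 28 were 8mers. Some overlapped each other, and the 28 occupied 25 separate places. Common regions made up 8.47% of the 3′UTR length of the machinery genes. Matches were therefore 1.57 times as dense inside the regions as outside them, with 6.39 against 4.07 per kb. The same quotient over all genes was 1.18, with 2.07% of 106553 matches in common regions that made up 1.76% of 3′UTR length. Of the 35 miRNAs, 17 had a match in a common region of a machinery gene. The regions were also richer in A and T than the 3′UTRs that held them in each of the 7 genes, for example 67.2% against 56.4% in Tnrc6b and 59.1% against 52.8% in Ago2, and the part of base composition in the seed match densities was not tested.

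Coding sequence was a second place of recurrent peaks, mainly in Tnrc6a. There 6 of the 10 genes held a common region, against 10.1% of all genes. These were not genes of like length, since the median coding sequence was 3868.5 nt in the machinery genes and 1218 nt in all genes. The coding sequence of Tnrc6a had 19, 43 and 27 peaks and 17 common regions, the fourth highest number of all genes, and 0.152% of genes had at least 10. Of these regions, 9 lay in exon 6, and the 3 with the closest midpoints were all there, at chr7:123169934-123170014, chr7:123170546-123170704 and chr7:123170105-123170188. Tnrc6b had 4, 33 and 15 coding peaks and 3 common regions, all in exon 8 (chr15:80880367-80880414, chr15:80880679-80880756 and chr15:80881143-80881199). Tnrc6c had 3, 31 and 5 coding peaks and 2 common regions, in exon 5 (chr11:117721690-117721766) and exon 21 (chr11:117759639-117759703). In the common regions of coding sequence, 9 seed matches were found, 6 of them in Tnrc6a and all of those 8mers. Coding matches outside these regions and over all genes are not given here. The count therefore has no background share, and the search was added after the peaks had been seen.

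In introns, 4 of the 10 genes held a common region, against 15.3% of all genes, with a median intron length of 66884 nt against 14219 nt. Tnrc6a held 13 of the 22, Tnrc6b 5, Ago2 3 and Xpo5 the 1 at Mir693, and 0.415% of genes had at least 10. Wide peaks were behind many of them, since in 12 of the 22 at least 1 library was represented by a peak of over 1000 nt. The longest region, of 777 nt in intron 10 of Tnrc6a, was 57.9% repeat sequence. It fills the gap between the common regions of exons 10 and 11, under peaks of 883, 2921 and 899 nt in replicates 1, 2 and 3 that reach both exons. Some regions in introns 11, 13, 16 and 20 of Tnrc6a also directly adjoin a common region of coding sequence. The 3 intronic regions of Tnrc6a with the closest midpoints lay in intron 2, at chr7:123140034-123140111, chr7:123141051-123141112 and chr7:123126129-123126181, and rested on peaks of 80 to 118 nt. The 3 in Ago2 lay in intron 3 (chr15:73131392-73131468) and intron 1 (chr15:73162668-73162756 and chr15:73164612-73164693), and each drew on a peak of at least 926 nt in replicate 2. In Tnrc6b all 5 lay in intron 4, and 3 of them drew on a peak of 2363 nt in replicate 1, including the third closest at chr15:80801297-80801379. The other 2, at chr15:80799040-80799072 and chr15:80799096-80799131, rested on peaks of 80 to 125 nt.

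When only peaks of 86 to 200 nt were kept, the 3′UTRs held 71, 235 and 167 peaks and 23 common regions in 5 genes, against 9.25% of all genes. Ago2 and Tnrc6b then had 9 regions each, Tnrc6a and Tnrc6c had 2 each and Ago3 had 1, while Dicer1 and Xpo5 had none. Coding sequence then held 11 regions, 5 of them in Tnrc6a and 1 in Dgcr8, and introns held 1, in Tnrc6a. In 43 of the 50 3′UTR regions, in all 28 coding regions and in 21 of the 22 intronic ones every stretch of 25 nt occurred once in the genome. In 8 of the 3′UTR regions repeat sequence made up most of the length, among them chr15:80935155-80935251 in Tnrc6b with 85.6% and chr7:123193666-123193755 in Tnrc6a, the region with a pair of miR-30a-5p matches, with 90%. Peaks below the top score of 60 made up 7.08% of the members' 3′UTR peaks, against 0.705% of all peaks, and with peaks at 60 alone 37 regions were found in place of 50.

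**Figure D3:**
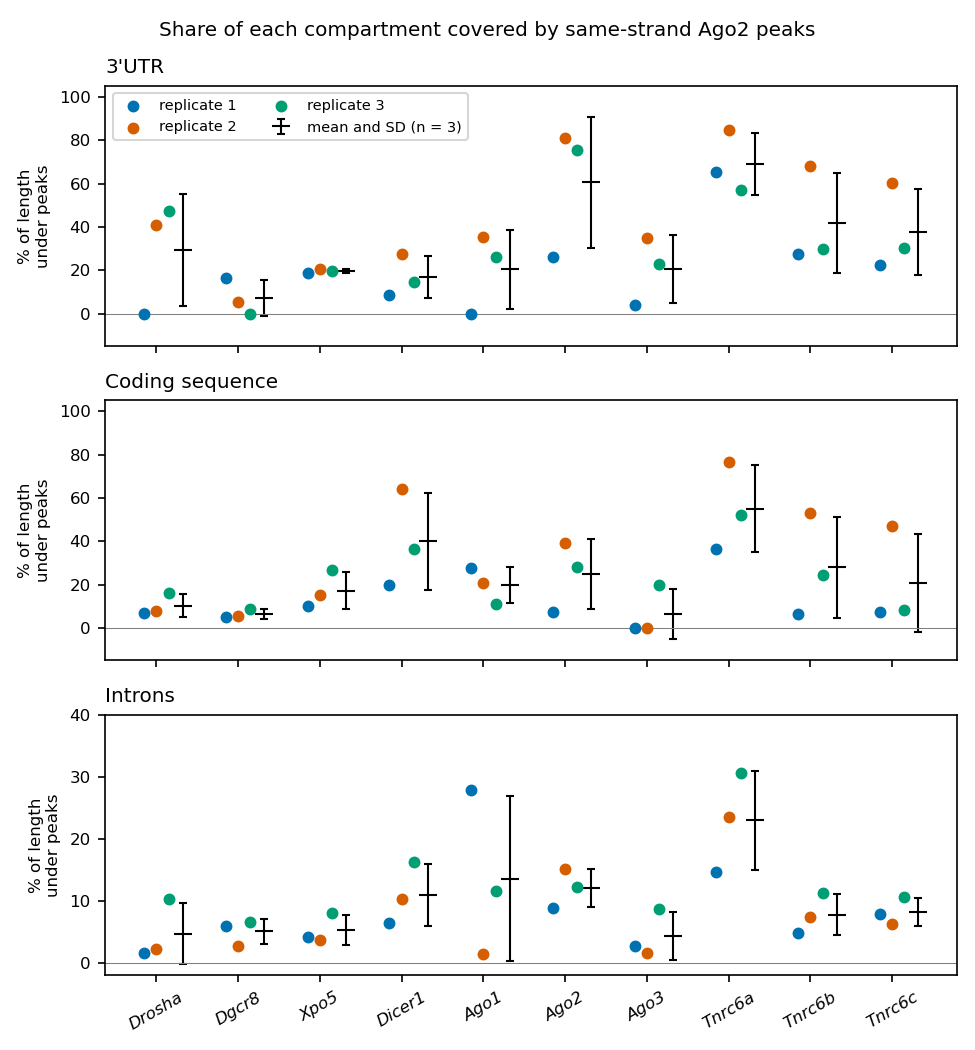
The plot gives the percentage of 3′UTR, coding sequence and intron length under same-strand peaks for each gene, with coloured points for replicates 1 to 3 and bars for the mean and SD. Replicate 2 is highest in 8 of the 10 3′UTRs, Xpo5 is nearly equal in the 3 libraries at 19.7%, and Ago1 is at 0% in the 3′UTR of replicate 1.

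The strand of the 3′UTR peaks was tested in each library as the log2 ratio of same-strand over opposite-strand peaks, with 0.5 peaks added to both counts. Of 9 genes with at least 5 peaks, 7 had more same-strand peaks by limma's test, and the share among all 6373 genes tested was 63.4%. None of the 9 had more opposite-strand peaks, against 0.894% of all genes. The 7 were Ago2, Ago3, Dicer1, Xpo5, Tnrc6a, Tnrc6b and Tnrc6c. Ago2 had 6, 1 and 0 opposite-strand peaks against its 32, 101 and 83, a mean log2 ratio of 5.26 ± 0.99 (SE, n = 3, adjusted p = 0.00211). Tnrc6a had none on the opposite strand in any library, and its ratio was 4.57 ± 0.81 (adjusted p = 0.00202). Xpo5 had none either and had the lowest ratio of the 7, 2.65 ± 0.81 (adjusted p = 0.0139). Ago1 had 1, 0 and 1 opposite-strand peaks and did not pass (2.23 ± 1.10, adjusted p = 0.0856), nor did Dgcr8 (0.94 ± 0.82, adjusted p = 0.303). Without replicate 2 no gene passed, of the 8 machinery genes or the 4743 genes tested, while 6 machinery genes had an unadjusted p under 0.05. With genes of at least 1 peak tested, none of 13783 genes passed, and 7 machinery genes had an unadjusted p under 0.05.

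The density of peaks in the 3′UTR was compared with that in the introns of the same gene, per kb and with 0.5 peaks added to each count. By limma's test 8 of the 10 genes were denser in the 3′UTR, and so were 70.7% of all 13178 genes tested, while 0.0835% of genes and none of the 10 were denser in introns. The number added moved this call. Adding 0.5 peaks gives compartments without any peak a ratio set by their lengths alone. For Drosha, with 0, 1 and 1 peaks in 169 nt, that ratio is 9.27 on the log2 scale, against a fitted 4.33 ± 0.63 (SE, n = 3, adjusted p = 0.00658). Ago2 alone was fitted above its ratio without any peak, at 3.53 against 2.76. In the other genes the fitted ratio was the lower one, for example 2.16 against 4.65 for Tnrc6a and 2.58 against 4.68 for Xpo5. With 0.5 peaks per kb added in place of 0.5 peaks, none of the 10 and none of the 13178 genes passed. That setting is another reading of the plan and was computed after these calls had been seen. Even so, 6 of the 10 had an unadjusted p under 0.05 with it. The calls of all genes were lost as well with 0.1 peaks added. The log2 ratio of Ago2 was then 3.53 as before and that of Tnrc6b 3.10 against 3.11. They were also lost with the share of covered bases, where the median log2 ratio of the 10 genes was 1.40, against 2.59 with 0.5 peaks. Without replicate 2 or replicate 3 no gene passed. Without replicate 1 Drosha was the 1 machinery gene that did, beside 4239 of 11644 genes. These are fits on 2 libraries, and the log2 ratio leaving out 1 library was 2.75 to 3.95 for Ago2 and 2.25 to 2.93 for Xpo5, against 3.53 and 2.58 with all 3.

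For Ago2 the log2 ratios of 3′UTR over introns were 2.68, 5.07 and 2.83 in replicates 1, 2 and 3, a mean of 3.53 ± 0.70 (SE, adjusted p = 0.0104), and with 0.5 peaks per kb it was 2.62 ± 0.45 (adjusted p = 0.104). For Tnrc6a the ratios were 2.36, 2.86 and 1.25, a mean of 2.16 ± 0.59 (adjusted p = 0.0232), and 1.67 ± 0.31 with 0.5 peaks per kb (adjusted p = 0.109). Each of these ratios was above 0 in all 3 libraries. Dgcr8 lay at 1.65, 1.81 and -0.997 and Ago1 at -1.40, 4.90 and 2.75, so each of them had a library on either side of 0. Neither passed, with adjusted p of 0.343 for Dgcr8 and 0.168 for Ago1.

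**Figure D4:**
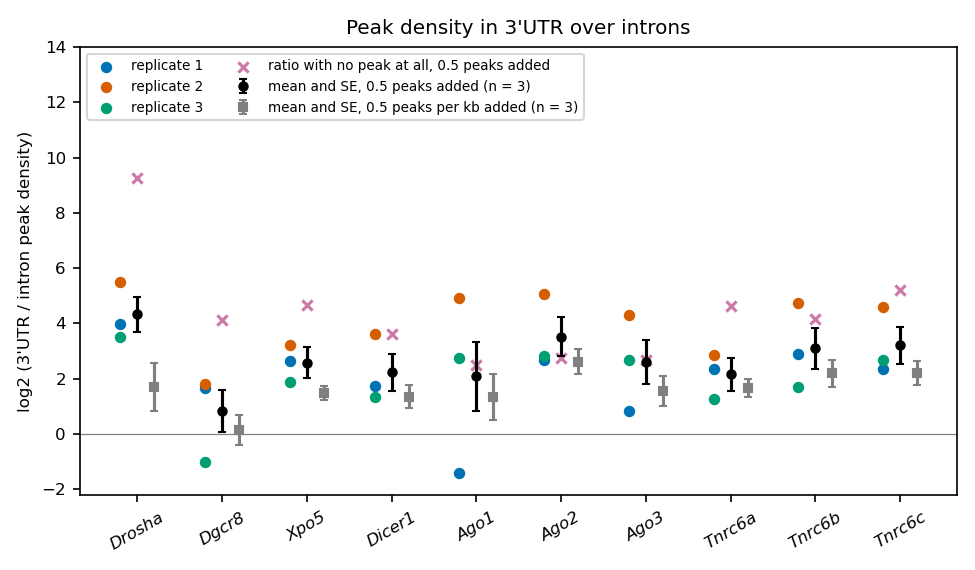
The plot shows the log2 ratio of peak density in the 3′UTR over introns for each gene. Coloured points are the libraries, black circles the mean and SE with 0.5 peaks added, grey squares the mean and SE with 0.5 peaks per kb added, and crosses the ratio that a gene without any peak would have with 0.5 peaks added. The grey squares lie below the black circles in all 10 genes, and the cross of Drosha stands at 9.27.

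Coding sequence was denser than introns in 4 of the 10 genes, Dicer1, Drosha, Tnrc6a and Xpo5, and in 50.0% of all 13056 genes tested, with 0.0689% of genes and none of the 10 denser in introns. Dicer1 had the highest ratio, 3.09 ± 0.63 on the log2 scale (SE, n = 3, adjusted p = 0.024). Lengths alone, without any peak, would give Dicer1 a ratio of 3.05 with 0.5 peaks added. For Drosha, Tnrc6a and Xpo5 that ratio is 4.66, 3.33 and 3.23, above the fitted 2.14, 2.11 and 2.08. With 0.5 peaks per kb added in place of 0.5 peaks none of the 10 passed, nor any other gene, and 4 of the 10 had an unadjusted p under 0.05. No gene passed with 0.1 peaks added or without any 1 of the libraries either. The log2 ratio of Dicer1 was 3.09 with 0.1 peaks, 2.48 to 3.43 leaving out 1 library and 2.10 with 0.5 peaks per kb. The 3′UTR was not called denser than coding sequence in any machinery gene by limma, nor in any of 8154 genes (0.0%), with 4 machinery genes at an unadjusted p under 0.05. The largest of these differences were 2.21 ± 0.76 for Ago3 and 2.19 ± 0.54 for Drosha, with adjusted p of 0.157 and 0.109. Without any peak the lengths alone would set the ratio of Drosha at 4.61. With 0.5 peaks per kb added, the ratios were 1.63 ± 0.60 for Ago3 and 0.65 ± 0.79 for Drosha. With 1 peak added, Drosha was the 1 machinery gene that passed, beside 790 of the 8154 genes tested. With 0.5 peaks per kb Drosha did not pass limma's test (adjusted p = 0.671).

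Other genes of the miRNA pathway were described as a list of 37. In 21 of the 37 the 3′UTR had a peak in every library, and 19 held a common region there, against 22.4% and 14.3% of all genes. Their median 3′UTR was 1642 nt, and among genes with 1306 to 2385 nt the shares were 31.8% and 20.2%. In coding sequence 11 held a common region and in introns 13, against 10.1% and 15.3%. Of 23 that could be tested for strand, 20 had more same-strand peaks, against 63.4%. The 3 with the most common regions in the 3′UTR, picked after their values were seen, were Dcp2, Lsm14a and Fmr1. Dcp2, the decapping enzyme, had 16, 54 and 49 peaks there and 11 common regions. Lsm14a, a protein of processing bodies, had 7, 8 and 11 peaks and 7 regions, and Fmr1, which encodes an RNA-binding protein of neurons, had 7, 17 and 18 peaks and 6 regions. Ago4, the remaining Argonaute, had no 3′UTR peak in any library.

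By distance over 9 values (log2 of peaks per kb plus 0.5 in 3′UTR, coding sequence and introns of each library), the most alike of 20009 other genes was Hcfc1 for Ago2 (distance 0.559), Ric8b for Ago1 (0.521), Wbp4 for Ago3 (0.513), Pkn2 for Tnrc6a (0.701), Acvr2a for Tnrc6b (0.714) and Srpk1 for Tnrc6c (0.814). For Drosha it was Mpdz (0.670), for Dicer1 Gid8 (0.878) and for Dgcr8 Fancm (1.36). Among these 9 genes Dgcr8 was the farthest from its nearest gene.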

How the data were processed

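The authors called peaks for each of the 3 libraries and deposited them in 1 table of intervals, each with its strand, a score and the library it came from. Per the labels, reads were handled with FastQC, cutadapt and STAR on build mm10, with versions, peak caller and its threshold not given in the sources used here. The deposited score has no stated unit, lay between 54.6 and 60 and was used only as a filter. Reads behind a peak are unknown, so no depth or counting interval can be given. No other column held values of a sample.

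Starts were read as counted from 0, and printed coordinates count from 1. The gene models were those of GENCODE mouse M21, the genome sequence was GRCm38.p6, and mature miRNAs were those of RefSeq on the same build. The 3′UTR was the longest of the gene's protein-coding transcripts, without the stop codon, and introns excluded exons of any coding gene on the strand. Peaks were counted by midpoint and common regions by covered bases. Within-gene log2 ratios were tested against 0 with limma 3.58.1 (R 4.3.3) over all genes with at least 5 peaks, adjusted by Benjamini-Hochberg, threshold 0.05, after the code was tested on simulated data. There the fits called shifted genes where a large part of all genes was shifted and called none where few were, so a gene that did not pass is not shown to have no difference. Peaks need not be independent, so the p-values rest on the spread of the ratios between libraries and not on the number of peaks as a sample size.

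The plan for the density ratios named the pseudocount as 0.5 per kb in one place and as 0.5 peaks in another. The ratios were first computed with 0.5 peaks, and after 8 and 4 genes had been called, also with 0.5, 1 and 0.1 peaks per kb, because a fixed number raises the ratio of short compartments. With 0.5 peaks per kb no gene was called, and this was taken for a time as the leading setting. The setting with 0.5 peaks was then restored, with both results known, because the list of alternatives names it. Both results are given, and neither choice was blind to the calls. Alternatives otherwise were peak width, trimmed edges, score, each replicate left out, number of libraries, region length, 3′UTR model, site type, pseudocount, filter and covered share. The genes, pathway list, miRNA list and marker lists were chosen with earlier results of these data known. All members are named. Regions are named where a gene had at most 3, otherwise the 3 with the closest peak midpoints, and 8mers are shown first. The expression of the genes was not measured. Python 3.11.15, numpy 2.4.6, pandas 2.3.3, numba 0.67.0, pysam 0.24.0 and matplotlib 3.10.9 were used. Some genes of the marker lists and the gene most like Xpo5 are not reported here by name.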

Additional observations from a re-analysis of the deposited data

How the results depend on the processing

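The number of genes with a 3′UTR peak in every library stayed within 1.5 times of 7 under all 7 alternatives, and the number with a common region was 4 with trimmed peaks. The 50 common regions of 3′UTRs became 134 in at least 2 libraries and 23 with peaks of 86 to 200 nt, and 55 to 111 when leaving out 1 library. The 28 seed matches became 80 in at least 2 libraries, 9 for 8mers alone, 55 with 6mers, 14 with peaks of 86 to 200 nt, 9 with trimmed peaks and 16 at score 60, and 32 to 59 leaving out 1 library. The median covered share was 9.77% with trimmed peaks and 20.1% to 37.4% leaving out 1 library. The 22 intronic regions became 216, 1 and 11 (at least 2 libraries, 86 to 200 nt, trimmed), and the 28 coding ones 100, 11 and 16. Leaving out 1 library gave 48 to 116 and 34 to 79.

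Denser 3′UTRs than introns were called in 0 genes with 0.1 peaks added, with 0.5, 1 or 0.1 peaks per kb and with covered bases, and in 0 to 1 leaving out 1 library. Denser coding sequence was called in 0 genes under the same settings and leaving out any library, and in 7 with peaks of 86 to 200 nt, beside 6479 of 8673 genes. Denser 3′UTRs than coding sequence were called in 1 gene with 1 peak added and in 0 leaving out any library. Strand calls were 0 with a filter of 1 peak (0 of 13783 genes) and 0 to 7 leaving out 1 library (3748 of 5647 genes without replicate 1, 0 of 4743 without replicate 2 and 1620 of 4494 without replicate 3). Over all genes, 9319 of 13178 were denser in the 3′UTR than in introns with 0.5 peaks added and 0 with 0.5 peaks per kb, and 6527 of 13056 and 0 in coding sequence. The settings of 1 and 0.1 peaks per kb were chosen after the data were seen, and that of 0.5 peaks per kb, one reading of the plan, was computed after the calls with 0.5 peaks were seen. The cause of the changes was not tested.

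Only log2 ratios that had not passed changed sign. Dgcr8 had 3′UTR over introns at -0.11 with 0.1 peaks and -0.15 with 0.1 peaks per kb, coding over introns at -0.094 at score 60 and -0.051 to 1.01 leaving out 1 library, and 3′UTR over coding at -0.18 with covered bases, -0.25 with peaks of 86 to 200 nt, -0.40 with 0.1 peaks and -0.29 with 0.1 peaks per kb. Ago3 had coding over introns at -0.089 with covered bases, -1.19 with 0.1 peaks, -0.70 and -0.073 with 0.1 and 0.5 peaks per kb, and -0.26 to 0.89 leaving out 1 library. The 3′UTR over coding ratio was -0.44 with covered bases and -0.043 to 1.12 leaving out 1 library in Ago1, and -0.15 at score 60 and -0.13 to 0.26 leaving out 1 library in Tnrc6a. No paired analysis was possible because 1 group alone was sampled, and each log2 ratio was already taken within a library.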
